A study of Mus musculus with 2 samples.

Results

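Intronless coding genes are protein-coding genes written in the genome as a single exon, so that their transcripts reach the ribosome without splicing. They were taken here as the coding genes of chromosomes 1 to 19 in GENCODE M21 (mm10) for which every annotated transcript has 1 exon, leaving out the olfactory receptor, histone cluster, vomeronasal and taste receptor names (Olfr, Hist, Vmn and Tas2r). The rule found 892 genes among 20780 autosomal coding genes, beside 19622 genes with introns and 266 single-exon genes left out by name. Names were filtered among single-exon genes only. Genes with introns that carry such names, for example Vmn1r113, stay among the 19622. The choice used the annotation alone and no measured value. A gene was called stand-alone when its body, the whole annotated span, overlapped no other coding gene on either strand, which held for 645 of the 892. Another 186 lay wholly inside another coding gene, called the host here, and 61 overlapped one in part.

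The measurement was chromatin immunoprecipitation and sequencing for H3K36me3, histone H3 trimethylated at lysine 36, in macrophages grown from bone marrow. Both samples were primary cells of C57BL/6J mice kept without a stimulus. They were 2 biological replicates of 1 group, recorded as separate biosamples under 1 donor record, with sex and age not collected. Each library started from 10 ng of nucleic acid with fragments of 350 to 480 bp. The design therefore has no treated group, and each value below is given for each replicate with no test between conditions. Spread between the replicates may be partly technical, since nothing in the labels says that they came from separate animals.

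H3K36me3 is written by the methyltransferase Setd2, which travels with elongating RNA polymerase II, so the mark lies over transcribed gene bodies and tends to build up away from the start. The mark is also known to be sensitive to splicing, which makes genes that are never spliced an informative class. Many intronless genes are retrocopies, made when a spliced messenger RNA is copied into DNA and put back elsewhere, while others belong to old families that respond quickly to signals, such as Jun, or build hair and skin.

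The replicates differed in how much was called. On the autosomes the authors' list for replicate 1 held 32016 peaks covering 28.5 Mb, and that for replicate 2 held 58233 peaks covering 79.1 Mb. The median peak was 744 bp long in replicate 1 and 990 bp in replicate 2. All 10 macrophage marker genes examined, among them Csf1r, Adgre1 and Siglec1, had at least 20% of the body under peaks in replicate 2, and 7 of the 10 did in replicate 1. None of 25 marker genes of T cells, B cells, neutrophils, fibroblasts and neurons had a peak in either replicate.

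The sequences below show what sets intronless copies apart from their spliced relatives at the level of DNA and how alike a copy and its relative can be. Psme2b, Capns2 and Mcts2 are intronless genes covered by peaks, and each is shown with the matching stretch of the spliced transcript of its closest intron-bearing relative. All are read 5′ to 3′ on the coding strand of the RefSeq mm10 assembly. In the copies, capitals mark bases that differ from the relative. In the relatives, capitals mark the last base of one exon and the first base of the next at 1 junction. The labels and coordinates of the relatives name the 2 exons that meet there. A stretch can run on into a further exon, whose junction is not marked. This is so for Psme2, where exons 2 and 3 together are shorter than the stretch shown.

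Psme2b (chr11:48945978-48946097, minus strand, coding sequence): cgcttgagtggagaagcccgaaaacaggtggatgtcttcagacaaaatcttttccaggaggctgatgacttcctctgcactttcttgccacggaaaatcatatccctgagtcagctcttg
Psme2 (chr14:55590033-55590527, minus strand, exons 2 and 3 joined): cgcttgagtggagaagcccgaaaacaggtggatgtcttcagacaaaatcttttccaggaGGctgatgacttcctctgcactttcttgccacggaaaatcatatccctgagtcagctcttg
Capns2 (chr8:92901695-92901814, plus strand, coding sequence): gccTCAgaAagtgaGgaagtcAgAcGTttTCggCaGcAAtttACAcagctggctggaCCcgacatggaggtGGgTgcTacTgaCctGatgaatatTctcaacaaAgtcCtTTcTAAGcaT
Capns1 (chr7:30192320-30192592, minus strand, exons 5 and 6 joined): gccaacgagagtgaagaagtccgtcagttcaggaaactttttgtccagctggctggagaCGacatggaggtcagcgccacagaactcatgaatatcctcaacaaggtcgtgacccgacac
Mcts2 (chr2:152687375-152687494, plus strand, coding sequence): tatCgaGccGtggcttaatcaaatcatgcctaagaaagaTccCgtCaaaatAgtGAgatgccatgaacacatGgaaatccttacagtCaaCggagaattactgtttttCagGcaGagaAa
Mcts1 (chrX:38601929-38602673, plus strand, exons 2 and 3 joined): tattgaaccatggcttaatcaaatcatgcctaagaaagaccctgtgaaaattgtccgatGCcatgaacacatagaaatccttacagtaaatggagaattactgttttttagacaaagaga

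Over these 120 bases Psme2b had 0 mismatches to spliced Psme2, Mcts2 had 16 to Mcts1, and Capns2 had 37 to Capns1. The introns that the copies lack at the marked junctions are 399 bp long in Psme2, 125 bp in Capns1 and 494 bp in Mcts1. All 120 bases of each copy lay under a peak in replicate 2. In replicate 1 only the Mcts2 stretch did.

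Few intronless genes carried a called peak. In replicate 1, 8 of the 892 (0.897%) had at least 1 base under a peak, against 30.5% of all autosomal coding genes. In replicate 2 the count was 34 of 892 (3.81%), against 39.9% of all coding genes. In both replicates it was 7 of 892 (0.785%), against 30.2% of all coding genes, and in either 35 of 892 (3.92%), against 40.2%. A gene with no peak is one where none was called, and weaker signal below the authors' calling threshold cannot be seen in peak lists.

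Genes covered over more of their length were rarer still. At 20% of the body or more, 4 intronless genes were covered in replicate 1 (0.448%, against 8.06% of all coding genes) and 23 in replicate 2 (2.58%, against 24.6%). The same 4 genes, Gm10337, 9330161L09Rik, Rsc1a1 and Mcts2, passed in both replicates (0.448%, against 8.03%). Of these, 3 lay inside another coding gene and 9330161L09Rik was stand-alone.

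Intronless genes are short, and short genes of any structure had fewer peaks. Their median length was 1321.5 bp (quartiles 826.5 and 2376 bp), against 19512 bp for genes with introns. Genes with introns were therefore weighted to the intronless genes' numbers in 9 length bins. After this weighting, 3.46% of genes with introns had a peak in replicate 1 and 9.42% in replicate 2, against 0.897% and 3.81% of intronless genes. In both replicates at once the shares were 3.42% and 0.785%. The share was thus 3.86 times as high in length-matched genes with introns in replicate 1 and 2.47 times as high in replicate 2.

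Among stand-alone genes the ratio between the classes was larger. Only 2 of 645 stand-alone intronless genes (0.310%) had a peak in replicate 1 and 10 (1.55%) in replicate 2. Length-matched stand-alone genes with introns had a peak in 2.03% and 5.98% of cases, which would have given 13.1 and 38.6 genes out of 645. The difference, intronless minus length-matched, was -1.72 percentage points in replicate 1 and -4.43 in replicate 2, the same direction in both. RNA was not measured in these samples, and the part of unequal transcription in these shares was not tested.

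The comparison rests on genes of 1.5 kb and more, because the shortest genes of both kinds had almost no peaks. Below 500 bp, 0 of 62 stand-alone intronless genes and 0 of 15 with introns had a peak in replicate 2. From 500 bp to 1 kb, 1 of 167 and 0 of 89 did. The classes parted from 1.5 kb on: from 2 to 3 kb, 1 of 98 intronless genes (1.02%) and 62 of 432 genes with introns (14.4%) had a peak in replicate 2, and from 3 to 4 kb the counts were 0 of 49 and 99 of 596 (16.6%). From 4 to 5 kb the gap was narrower, at 3 of 27 (11.1%) and 125 of 651 (19.2%). At 5 to 8 kb they were 3 of 17 (17.6%) and 403 of 1850 (21.8%), too few intronless genes to tell apart from the rest.

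**Figure D1:**
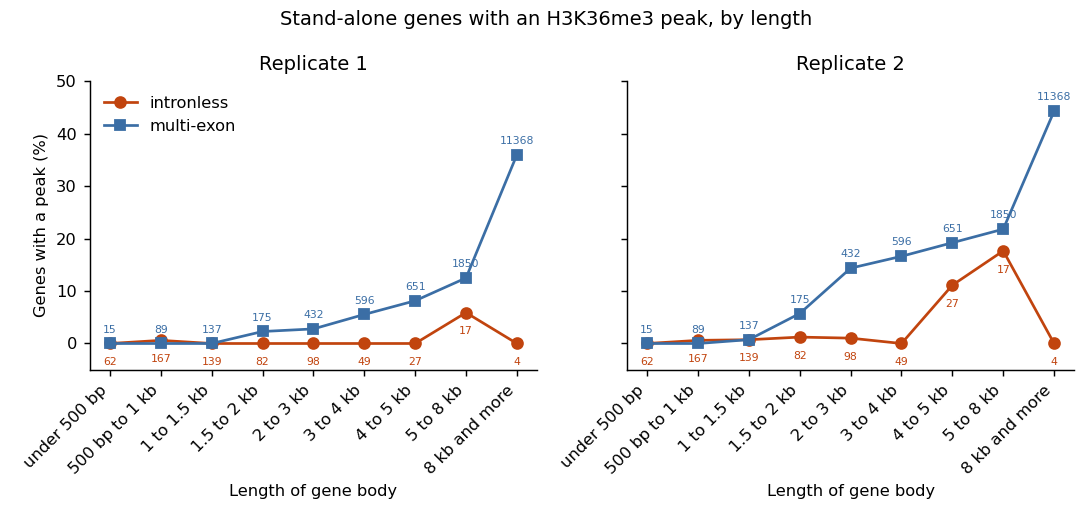
Share of stand-alone genes with an H3K36me3 peak (vertical axis, percent) by length of the gene body (horizontal axis), for intronless genes (circles) and genes with introns (squares) in each replicate, with the number of genes beside each point. From 1.5 to 5 kb the intronless points lie below the others in both replicates; at 8 kb and more there are 4 intronless genes.

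At similar length, genes with more exons had the higher share with a peak. Stand-alone genes of 2 to 5 kb were grouped by the largest exon number among their transcripts, and each class was weighted to the length distribution of the 174 intronless genes. In replicate 2, a peak was found in 2.30% of the intronless genes (4 of 174), in 6.89% of genes with 2 exons, in 12.6% of those with 3 or 4 and in 28.4% of those with 5 or more. In replicate 1 the shares were 0, 1.91%, 2.92% and 8.58%. The order was the same in both replicates. Genes with the names left out of the intronless class stay in the classes with introns. Their part in these shares was not tested.

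**Figure D2:**
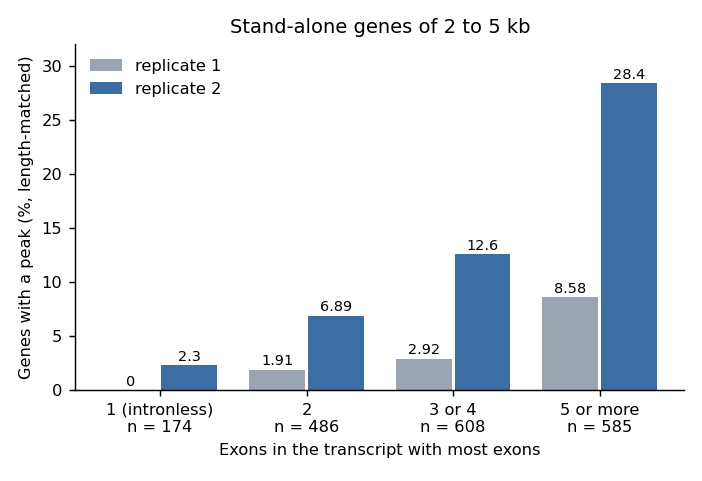
Stand-alone genes of 2 to 5 kb with a peak (bars, percent, weighted to the lengths of the intronless genes) by number of exons, in replicate 1 (grey) and replicate 2 (blue); n is the number of genes. The bars are taller in each class from 1 exon to 5 or more in each replicate, from 2.30% to 28.4% in replicate 2.

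Base composition differed between the classes as well. At 2 to 5 kb the median GC content was 51.1% in the 249 intronless genes and 50.1% in the 2107 genes with introns. The ratio of observed to expected CpG dinucleotides was 0.469 and 0.286, so intronless bodies held relatively more CpG. The part of base composition in the difference of peaks was not tested.

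The stand-alone genes that did carry peaks fell into separate kinds. The gene with most coverage, 9330161L09Rik (chr12:103406822-103407820, 999 bp), had 100% of its body under peaks in replicate 1 and 89.8% in replicate 2. Its start lies 162 bp past the end of Ddx24, an RNA helicase gene on the same strand that was itself covered over 46.0% and 81.0%. The peaks ran past the small gene into Ddx24 and, in replicate 2, also into Otub2 on the other side. Gm10521 had 0% and 92.1%. It lies 4946 bp from Cd84, a leukocyte surface receptor gene on the same strand with 25.8% and 48.4% of its body covered. The stretch of the same length upstream of Gm10521, towards Cd84, had 27.2% and 60.2% under peaks. That downstream had 64.0% and 64.3%. Gpbar1, the receptor for bile acids, had 0% and 5.77%, all from a peak that reached its last 62 bases from Aamp, the neighbouring gene 216 bp away.

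A second kind had peaks that stayed within the gene. Fem1a, a substrate receptor of cullin ubiquitin ligases, was covered over 9.88% of its body in replicate 1 and 39.2% in replicate 2. It was the only stand-alone gene with its own internal peak in both replicates, and both replicate 2 peaks and the replicate 1 peak lay wholly inside it. Exoc8, a subunit of the exocyst that tethers secretory vesicles, had 0% and 22.8%. Pigm, a mannosyltransferase of the GPI anchor pathway, had 0% and 19.4%, and Fzd7, a Wnt receptor, had 0% and 17.9%. Tlnrd1, which carries a talin rod domain, had 0% and 15.7%, and Itpripl2 had 0% and 9.13%. Except in Fem1a, these values came from replicate 2 alone.

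These are all 6 stand-alone intronless genes of 4 to 8 kb that had a peak. In replicate 2 the first covered base lay 2039 bp from the start of Fem1a, 1874 bp in Exoc8, 2004 bp in Pigm, 1855 bp in Fzd7, 2110 bp in Tlnrd1 and 4873 bp in Itpripl2. Their median was 2021.5 bp, against 2718 bp in the 528 stand-alone genes of 4 to 8 kb with introns that had a peak in that replicate. The coding part of the covered bases varied: 25 of the 2664 covered bases of Fem1a were coding, 356 of 1048 in Exoc8, 400 of 811 in Fzd7, 63 of 695 in Tlnrd1 and none of 1462 in Pigm or 627 in Itpripl2. The rest lay past the stop codon, in the 3′ untranslated region. Gpr151, a shorter gene for an orphan receptor known from the habenula of the brain, also had its replicate 2 peak wholly inside the body, but the first covered base lay 338 bp from the start and 972 of its 974 covered bases were coding (0% and 55.0% of the body).

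The coding ends of Fzd7 and Exoc8 are shown because the replicate 2 peak crosses the stop codon in each. All 243 bases of both lay under a replicate 2 peak and none under a replicate 1 peak, and capitals mark the stop codon.

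Fzd7 (chr1:59484436-59484678, plus strand): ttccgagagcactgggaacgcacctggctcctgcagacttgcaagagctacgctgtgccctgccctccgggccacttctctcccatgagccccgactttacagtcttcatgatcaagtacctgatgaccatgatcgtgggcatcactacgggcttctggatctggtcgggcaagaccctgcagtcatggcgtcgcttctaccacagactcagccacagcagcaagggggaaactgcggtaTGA
Exoc8 (chr8:124895476-124895718, minus strand): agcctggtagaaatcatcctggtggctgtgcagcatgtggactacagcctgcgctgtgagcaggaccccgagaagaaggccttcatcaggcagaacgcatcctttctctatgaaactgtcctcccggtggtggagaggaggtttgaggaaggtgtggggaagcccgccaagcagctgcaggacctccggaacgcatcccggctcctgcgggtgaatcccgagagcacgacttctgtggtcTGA

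**Figure D3:**
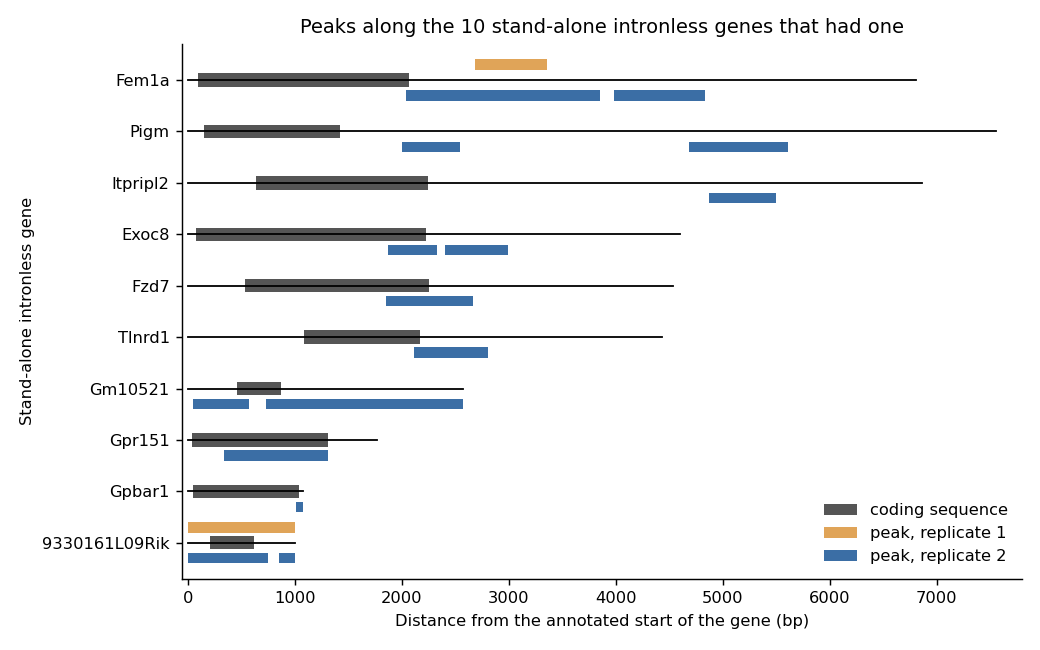
Peaks along the 10 stand-alone intronless genes that had one. The horizontal axis is the distance in bp from the annotated start, thin lines are gene bodies, thick dark bars the coding sequence, and coloured bars the parts under peaks in replicate 1 (above each gene) and replicate 2 (below). In the upper 6 genes the first covered base lies 1855 to 4873 bp from the start.

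Covered intronless genes were more frequent inside other genes. Among the 186 that lay inside a host, 6 (3.23%) had a peak in replicate 1 and 19 (10.2%) in replicate 2, and 3 and 15 reached 20% of the body. Genes with introns that lie inside another coding gene had a peak in 8.10% and 18.1% of cases after length matching, again more than intronless genes in both replicates. Of the 61 that overlapped a coding gene in part, none had a peak in replicate 1 and 5 (8.20%) in replicate 2. These were Lenep, AL732309.1, 9130023H24Rik, Klhl9 and 4930442H23Rik, with 2.57% to 75.2% of the body covered.

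The best covered nested genes lay in covered hosts. Gm10337 (chr15:102503722-102503886), a predicted gene of 165 bp, was covered over 100% in both replicates and lies within Map3k12, a stress-activated kinase gene on the opposite strand whose remaining body was covered over 17.7% and 23.7%. Rsc1a1, a regulator of sodium-coupled sugar transport, had 86.8% and 100% and lies within an exon of Ddi2 on the same strand, where the rest of the host had 19.4% and 57.6%. Mcts2 (chr2:152687035-152687946), an imprinted retrogene, had 88.4% and 94.1% and lies in an intron of H13, a signal peptide peptidase gene on the same strand. The rest of H13 had 4.93% and 41.5%. These peaks ran past Mcts2 by little: 806 of 823 bases of the replicate 1 peak and 858 of 952 bases of the replicate 2 peak lay within it. Other peaks lay close by. The stretch of the same length upstream of Mcts2 had 74.3% under peaks in replicate 1 and 93.2% in replicate 2. That downstream had 0% and 96.3%.

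The other nested genes with high values were covered in replicate 2 alone or almost so. AC141477.1 in Pcnt, the pericentrin gene, and AL731706.2 had 0% in replicate 1 and 100% in replicate 2. Both are under 210 bp long, so that a single peak spans them. Gm10401 in Sppl3 had 4.28% and 86.0%, and Capns2, the small calpain subunit copy in an intron of Lpcat2, had 0% and 81.7%. These 4 genes, together with Psme2b, show the widest gaps between replicates among nested genes.

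Psme2b was covered in replicate 2 within a host that was largely bare. This copy of the proteasome activator subunit Psme2 lies in Gm12185, which apart from it was covered over 0.454% and 2.52%, while Psme2b itself had 0% and 95.1%. Its near surroundings were not bare: the stretch of the same length upstream had 45.4% under peaks in replicate 1 and 46.1% in replicate 2, and that downstream had 0% and 15.9%. Of the 929 bases of its replicate 2 peak, 796 lay within the gene. Its coding sequence matches Psme2 at 99.3% identity, and Psme2 was covered over 14.6% and 45.1%. How reads that match both places were handled is not stated in the labels, and the part of Psme2 reads in this peak was not tested.

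Other nested retrocopy-like genes with a peak ranged from distant to near-identical copies. Uchl4 matches Uchl3 at 96.2% identity and AC170998.1 matches Gng5 at 95.7%, with 0% and 4.65% and with 0% and 2.27% of the body covered. Slc25a2 matches Slc25a15 at 75.03% and had 0% and 49.9%. Its host, Gm37388, was also largely bare, with 0.168% and 0.200% of the rest of its body covered. Capns2 matches Capns1 at 71.5% identity, Ldhal6b in Tmem242 (4.78% and 53.1%) matches lactate dehydrogenase Ldha at 72.1%, and Mcts2 matches Mcts1 at 85.2%. Nested genes with a peak that were not retrocopy-like included the following. Hus1b in Exoc2, a relative of the checkpoint clamp gene Hus1, had 0% and 51.8%, but 0% in the 2 lists that the authors made from both replicates. Lpar6, a lysophosphatidic acid receptor gene inside Rb1, had 0% and 15.0%, all past its coding sequence. Cenpb, which binds centromeric satellite DNA and lies inside Spef1, had 0% and 19.6% while the rest of Spef1 had none. The other 4 nested genes with a peak had none in replicate 1 and from 42.8% (Gm17334 in Irf1) to 72.5% (1700020D05Rik in Snx32) in replicate 2.

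Zbed6 showed the reverse order of replicates. This DNA-binding repressor, derived from a transposon and nested in Zc3h11a, had 12.9% of its body under peaks in replicate 1 and none in replicate 2. It was the only intronless gene with a peak in replicate 1 and none in replicate 2. The authors' list made from both replicates as replicated peaks covered 41.3% of it.

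**Figure D4:**
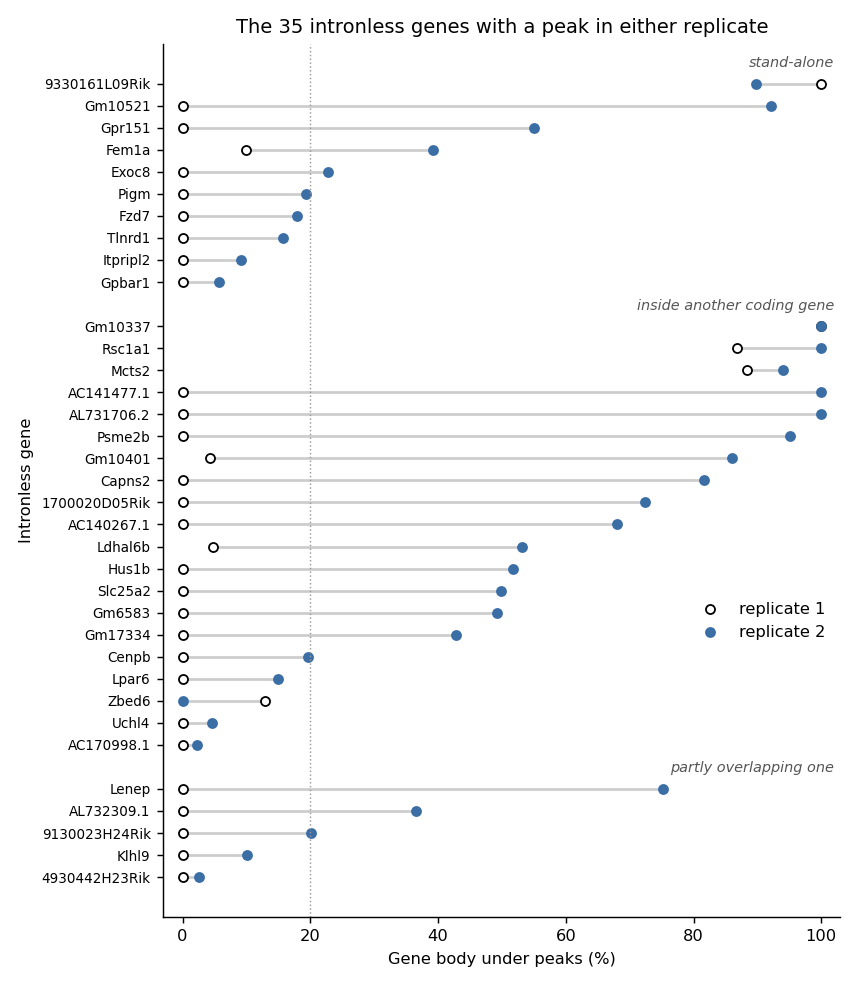
Share of the gene body under peaks (horizontal axis, percent) for the 35 intronless genes with a peak in either replicate, in replicate 1 (open circles) and replicate 2 (filled circles); the dotted line is at 20%. Most open circles lie at 0, and 4 genes lie right of the line in both replicates.

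A covered host did not by itself mean a covered nested gene. For 93 nested genes the host had no peak in either replicate. The host's body includes the nested gene, so these 93 could not have a peak by definition. Cenpb had a peak in replicate 2 while the rest of its host, Spef1, had none. Of the 30 nested genes whose host had at least 20% of its body covered in replicate 2, 13 had a peak in that replicate. By strand, the count was 9 of 16 where gene and host run the same way and 4 of 14 where they run in opposite ways. In replicate 1 the same genes gave 3 of 16 and 1 of 14. Mean coverage of these nested genes in replicate 2 was 41.9% on the same strand and 14.0% on the opposite strand, while the rest of their hosts had 41.3% and 41.2%. In replicate 1 the nested genes had 11.8% and 7.14%, and the rest of the hosts 14.2% and 17.3%. The strand groups also differed in mean position along the host, at 44.8% of its length on the same strand and 30.1% on the opposite strand. Nested genes nearer the host's start had a mean coverage of 5.07% in replicate 1 and 24.2% in replicate 2. Those nearer its end had 18.7% and 38.4%. The parts of strand and position were not tested.

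Uncovered genes in covered hosts included basic cell machinery. Exosc6, a subunit of the RNA exosome, had no peak although its host, the alanyl-tRNA synthetase gene Aars, was covered over 32.2% and 70.5%. Fahd1, a mitochondrial hydrolase gene in Hagh, and Eid3 in Txnrd1 had none either, with hosts at 42.8% and 29.8% in replicate 2. These 3 were picked for the text after their values were seen.

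**Figure D5:**
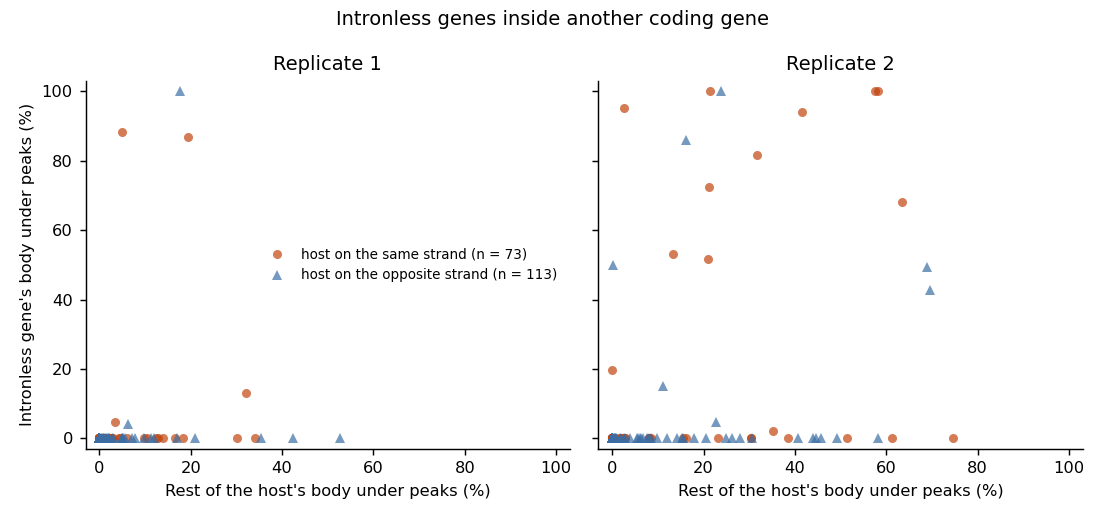
Share of the body under peaks for the 186 nested intronless genes (vertical axis, percent) against that for the rest of the host (horizontal axis, percent), with the host on the same strand (circles) or the opposite strand (triangles). Points on the horizontal axis are uncovered genes in covered hosts; In the replicate 2 panel Psme2b, at 95.1%, lies high above a host covered over 2.52%.

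Retrocopies were looked for by sequence. A gene was called retrocopy-like when its coding sequence matched a spliced transcript of another coding gene at 70% identity or more, over at least 50% of its length and across an exon junction. This held for 190 of the 892, of which 133 were stand-alone and 52 nested. None of the 133 stand-alone retrocopy-like genes had a peak in either replicate. Over all stand-alone intronless genes the shares were 0.310% in replicate 1 and 1.55% in replicate 2. At these shares a count of 0 in 133 does not set the retrocopy-like genes apart. Of the 52 nested ones, 2 had a peak in replicate 1 and 7 in replicate 2. Among the other intronless genes, 10 of 512 stand-alone and 12 of 134 nested ones had a peak in replicate 2.

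In replicate 2 the relatives of the stand-alone retrocopy-like genes were covered more often than genes with introns as a whole. The relative lay on chromosomes 1 to 19 for 116 of the 133, and these 116 share 65 relatives. Of the 65 relatives, 28 had at least 20% of the body under peaks in replicate 2, against 25.9% of all genes with introns. In replicate 1 the count was 8 of 65, against 8.51%. The 28 are the relatives of 39 retrocopy-like genes, and none of the 39 had a peak. With a peak in 1.55% of all stand-alone intronless genes in replicate 2, a count of 0 in 39 does not set them apart. Copies and relatives were not matched for length. The sequence rule also takes in members of large families, since 11 of the 133 matched the 2-exon gene Gm11555 and 10 matched the 2-exon gene Vmn1r113. Nested ones such as Krtap10-10 and Krtap10-4 likewise matched the 2-exon gene Gm10318. Another 8 of the 133 matched Cdc5l, across 15 junctions at 97.6% to 97.7% identity. Actbl2, a copy of the actin gene Actb at 79.9% identity, had none while Actb had 29.9% and 56.6%. Pcbp1, an RNA-binding protein gene matching Pcbp2 at 78.8%, had none while Pcbp2 had 35.98% and 59.1%. Cdc34b, a copy of the ubiquitin-conjugating enzyme Cdc34 at 95.3%, had none while Cdc34 had 27.4% and 64.1%. These 3 pairs were picked after their values were seen. Short reads from near-identical copies can be lost or misplaced, and of the 59 genes with identity of 95% or more, 0 had a peak in replicate 1 and 3 in replicate 2. The part of read placement in these counts was not tested.

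By function, the named groups had few or no peaks, as 0.897% and 3.81% of all intronless genes had one in replicates 1 and 2. At these shares, groups of this size are not set apart by a count of 0. None of 53 keratin-associated and cornified envelope genes of hair and skin, 34 developmental transcription factors such as Sox11 and Foxc1, 18 beta protocadherins and 17 type I interferons had a peak in either replicate. None was found in 9 immediate early and bZIP regulators, 7 heat shock and chaperone genes or 6 histone variant and linker genes. Among 57 G protein-coupled receptors, none had a peak in replicate 1 and 4 did in replicate 2, namely Gpr151, Fzd7, Lpar6 and Gpbar1. The 3 longest intronless genes, Mars2 of 11294 bp (a mitochondrial methionyl-tRNA synthetase), Pcdhb14 of 8695 bp and Paqr9 of 8367 bp, had none.

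Several of these genes are well known in macrophages. Cebpb, a transcription factor of myeloid cells, had 0% in both replicates, as did Jund. The same held for Jun, Ier2 and Ier5, which respond within minutes to signals. Rhob, an endosomal GTPase, and the inducible chaperones Hspa1a and Hspa1b had none. H2afx, the histone variant marked at broken DNA, and the linker histone gene H1f0 had none either.

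Intron-bearing relatives of these genes were covered in part. In the 7 listed families that hold an intronless gene, none of the 14 intronless genes had a peak, while 23 of 46 genes with introns did in replicate 1 and 27 in replicate 2. Over all genes with introns the shares were 32.3% and 42.1%. The families were chosen with earlier results of these data known. In the AP-1 family, Fos (3384 bp with 4 exons) had 12.3% and 32.7%, and Fosl2 17.5% and 26.1%, while Jun (3189 bp) and Jund had 0%. Of the Maf factors, Maf had 5.48% and 27.6% and Mafk 17.7% and 39.2%. Among Hsp70 chaperones, Hspa5 (5578 bp with 9 exons) had 20.7% and 46.8%, and Hspa9 34.9% and 69.7%. Rac2, a GTPase of blood cells, had 34.9% and 68.8%.

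Length again moved with this contrast. The 14 intronless genes had a median length of 2516 bp and their 46 relatives with introns one of 12026 bp. Below 5 kb, 1 of 10 relatives with introns, Fos, had a peak in replicate 1, and the same gene alone did in replicate 2. Junb, Cebpa, Cebpd and Ier3, each with 2 exons, had none. At this number of genes the families below 5 kb do not tell the classes apart.

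The single-exon structure was checked against a second annotation. RefSeq held an mRNA of the same symbol for 617 of the 892 genes, of which 594 were single-exon in every such mRNA and 23 were not. Among the 35 covered genes, 23 were single-exon in RefSeq too, and 1, the lens gene Lenep, had 2 exons there. Lenep overlaps Flad1 in part and had 0% and 75.2% of its body covered. The other 11 covered genes, among them Gm10337 and 9330161L09Rik, had no RefSeq mRNA under their symbol.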

How the data were processed

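H3K36me3 was measured in 2 replicates of unstimulated mouse macrophages. The authors deposited 4 peak lists in mm10: 1 for each replicate, 1 made from both replicates pooled, and 1 of replicated peaks, per the text files deposited with the samples. Each deposited peak carries an enrichment ratio (fold over background), −log10 p and q values and a score, all from the authors' caller; only the ratio and the −log10 q were used, as filters. Neither an aligner nor a caller nor a sequencing depth is given in the sources used here, so counting intervals cannot be given.

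Gene bodies came from GENCODE M21, and 27 records that share a symbol with a longer one were left out. The percent of each body under peaks was computed with Python 3.11.15, numpy 2.4.6 and pandas 2.3.3. The coverage and overlap steps were tested on simulated intervals. A gene was counted with a peak at 1 base and as marked at 20% of the body. Genes with introns were weighted to the intronless genes' numbers in 9 length bins. Coding sequences were compared with spliced transcripts by blastn 2.17.0 (e-value 1e-10, plus strand). A host is the shortest coding gene that contains the intronless gene. Printed sequences were read from the RefSeq GRCm38 genome, the same build as the peak lists.

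With 1 group and 2 replicates no test between samples was made. Named genes are those marked in both replicates, the highest stand-alone and nested ones, the highest and the longest uncovered of each functional group, the longest, those that differ most between replicates, and the genes of 10 listed families. The groups, families and alternatives were chosen with earlier results of these data known.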

Additional observations from a re-analysis of the deposited data

Results flagged for a closer look

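The values above come from the lists of the single replicates. The 2 lists that the authors made from both replicates covered at least 20% of the body of a few intronless genes that stayed under 20% in each replicate. In the replicated list these were AC170998.1 (57.6%), Zbed6 (41.3%), Hps6 (24.6%) and Uchl4 (20.9%). In the pooled list they were AC170998.1 (57.6%), Mfsd6l (40.4%), Ado (26.8%), Zbed6 (22.8%) and Pigm (22.7%). Hps6, a subunit of a complex for lysosome-related organelles, Mfsd6l and Ado had no peak in either replicate list. Each was covered by more than 20% in 1 of the combined lists only, with 0% of Hps6 in the pooled list, 0% of Mfsd6l in the replicated list and 11.99% of Ado in the replicated list. The combined lists also left out genes covered in replicate 2. Hus1b, AC141477.1, 9130023H24Rik and Gpbar1 had 0% in both combined lists. Fzd7, Tlnrd1, Itpripl2, Lpar6, Cenpb and 1700020D05Rik had 0% in the replicated list but not in the pooled list, and AL731706.2 had 0% in the pooled list.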

How the results depend on the processing

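The direction of the differences in percent with a peak held under every alternative run: intronless genes had the lower share, by -0.36 to -5.80 points for all genes and by -0.47 to -4.43 points for stand-alone genes. The counts were small and depended on the list. With 1 replicate left out, genes marked at 20% came to 4 or 23, those with a peak to 8 or 34, stand-alone ones to 1 or 5 marked and 2 or 10 with a peak, and nested marked ones to 3 or 15; the higher value is always that of replicate 2 alone. The differences were then -2.57 or -5.61 points for all genes and -1.72 or -4.43 for stand-alone ones. In the same order (marked, with a peak, stand-alone marked, stand-alone with a peak, nested marked), the pooled list gave 23, 36, 8, 13 and 13, with differences of -5.80 and -4.20 points. The replicated list gave 21, 31, 6, 10 and 13, with -5.30 and -4.24 points. Peaks with a −log10 q of at least 5 left 1, 2, 0, 0 and 1, with a difference of -0.36 points for all genes. Genes of at least 1 kb gave 1, 3, 0, 1 and 1. Leaving out predicted genes gave 2, 4, 0 and 1 for the first 4 counts. The same 4 counts were 2, 4, 0 and 1 for genes single-exon in RefSeq too, an alternative chosen after seeing the data. Counting overlap within 1 kb left 0 stand-alone marked genes and 1 with a peak, because Ddx24 lies 162 bp from 9330161L09Rik. The excess of genes with 5 or more exons over intronless ones at 2 to 5 kb was 26.1 points in replicate 2 and 8.58 in replicate 1. Nested retrocopy-like genes with a peak numbered 7 in replicate 2 and 2 in replicate 1; stand-alone ones stayed at 0 under the 4 alternatives run. Elsewhere the causes were not tested. No paired analysis was possible because there is 1 group. The depth behind the lists is unknown.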
